A study of Ovis aries with 10 samples.

Results

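The genes of the first step of steroid synthesis, STAR, CYP11A1, FDX1, FDXR and TSPO, are described here in adrenal glands of sheep fetuses. They were chosen by name, as the genes that carry cholesterol into mitochondria and cleave its side chain, and all 5 were found among the 19316 rows of the authors' deposited table of differential expression, each in a single row. RNA was sequenced from 5 glands labelled as injected with endotoxin and 5 control glands labelled as injected with saline, all at 102 days of gestation. Each group held 3 female and 2 male libraries, and the labels name no strain or further agent. The titles of the control libraries carry the letters WT and those of the endotoxin libraries the letters LPS, and the labels do not say whether WT refers to a genotype. Endotoxin is lipopolysaccharide from the outer membrane of Gram-negative bacteria, and the series title describes the fetuses as periviable and the exposure as intrauterine inflammation. The labels do not give the dose, the time between injection and collection, or whether each library came from a separate ewe, so p-values measure the spread between these samples.

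Steroid hormones are all made from cholesterol, and the rate of synthesis is set largely by how fast cholesterol reaches the inner mitochondrial membrane. STAR, the steroidogenic acute regulatory protein, moves it there in response to pituitary ACTH, and TSPO, the translocator protein of the outer membrane, binds cholesterol and has long been studied as a part of the same import route. On the inner membrane CYP11A1, a cytochrome P450, cuts the side chain and releases pregnenolone, the precursor of every steroid hormone. The electrons for that cut come from NADPH through the flavoprotein FDXR, ferredoxin reductase, and the small iron-sulfur protein FDX1, also called adrenodoxin. In fetal sheep, cortisol from the adrenal cortex matures the lungs and starts labour near term.

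Values of named genes came from the authors' deposited table, which gives 1 mean per group in TPM (a share of all transcripts, scaled by transcript length and library total) and holds no value per library. Its groups are called A and B. B was read as endotoxin, and that reading rests on the series title, which says that cortisol synthases were high after inflammation, so the direction of steroid genes is not independent of it. Between 96.1 and 1835 TPM, the range of the group means of the 5 genes, lay 1278 rows. Of these, 26 were at least 2-fold higher and 3 at least 2-fold lower in B than in A. The labelled TPM table had 1561 features in the same range. Of those, 28 were at least 2-fold higher and 3 at least 2-fold lower with endotoxin than in controls. The labelled tables carry other gene IDs, which start with ENSBTAG, while unnamed rows of the authors' deposited table start with ENSOART. Features of the 2 were thus not matched, and their counts are not of the same set. No table of names was at hand for the ENSBTAG IDs, so the 5 genes were not analysed per library. Endotoxin replicate 4 stood apart from the other endotoxin libraries at the 28 higher features, with a median of 1.01 times the control mean, and the values of the 5 genes could not be recomputed without it.

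Fetal adrenal glands of the endotoxin group held more transcript of 3 of the 5 genes than control glands. STAR, CYP11A1 and FDX1 were 2.13, 3.37 and 3.17 times as high by group mean in the authors' deposited table, and all 3 passed an adjusted p of 0.05. FDXR, at 1.57 times, did not pass, nor did TSPO, at 1.04 times. Of all 19236 rows of that table with a p-value, 1.72% were called, 1.29% higher and 0.426% lower. Among the 1197 rows whose overall mean lay within that of the 5 genes, 3.26% were called higher and 0.0835% lower.

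STAR, the cholesterol carrier, stood at 1027 TPM in endotoxin glands, against 481 TPM in control glands, in the authors' deposited table. Its log2 fold change there was 1.19 ± 0.29 (SE; 95% interval 0.61 to 1.76; adjusted p = 0.00817). Fold changes with an SE are the score times the standard error of the authors' deposited table, which is the scale of their count model. The control level already placed STAR at rank 323 of all rows, and the endotoxin level placed it at rank 160.

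CYP11A1, the side-chain cleavage enzyme, had the largest fold change of the 5 genes in the authors' deposited table. It was at 462 TPM in endotoxin glands and 137 TPM in control glands. The log2 fold change was 1.83 ± 0.35 (SE; 95% interval 1.14 to 2.52; adjusted p = 8.56e-05), which as a fold spans 2.21 to 5.75 in the authors' deposited table. By level CYP11A1 ranked 354 of all rows with endotoxin and 1012 in controls.

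FDX1, the electron donor of CYP11A1, was the most abundant of the 5 transcripts in both groups, at 1835 TPM with endotoxin and 579.6 TPM in controls in the authors' deposited table. It was higher by 1.75 ± 0.39 (SE; 95% interval 0.98 to 2.51; adjusted p = 0.00181) on the log2 scale of the authors' deposited table. The gain of 1256 TPM was the third largest among the rows of the authors' deposited table, where the gain of STAR ranked 16 and that of CYP11A1 ranked 35. A second ferredoxin, FDX2, which serves iron-sulfur cluster assembly and not steroid synthesis, was at 64.5 TPM with endotoxin and 55.5 TPM in controls in the authors' deposited table. Its log2 fold change there was 0.33 ± 0.17 (SE; adjusted p = 0.395).

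FDXR, the reductase that passes electrons from NADPH to FDX1, was at 174 TPM with endotoxin and 111 TPM in controls in the authors' deposited table. Its log2 fold change of 0.74 ± 0.26 (SE) did not pass (authors' deposited table, adjusted p = 0.116), although its 95% interval before adjustment ran from 0.24 to 1.25. It ranked 626 by p-value among the rows tested.

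TSPO, the outer membrane protein, was the lowest of the 5 genes in both groups, at 100.2 TPM with endotoxin and 96.1 TPM in controls in the authors' deposited table. The log2 fold change was 0.20 ± 0.25 (SE; adjusted p = 0.87), and its 95% interval in the authors' deposited table, -0.30 to 0.70, spans folds of 0.814 to 1.63. Changes of TSPO of any size within that interval remain compatible with these values. TSPO is also abundant in macrophages and neutrophils, so its level in a whole gland is a sum over cell types. Of 10 measured neutrophil markers 7 were called higher in the authors' deposited table. The 10 summed to 1925 TPM with endotoxin and 50.4 TPM in controls. S100A8, S100A9 and S100A12 held most of that sum, at 505, 736 and 658 TPM with endotoxin and 7.64, 26.1 and 11.6 TPM in controls. Of 11 measured macrophage and monocyte markers 2 were called higher in the authors' deposited table, at a sum of 204 TPM with endotoxin and 149 TPM in controls. The part of these cells in the TSPO value was not tested.

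**Figure D1:**
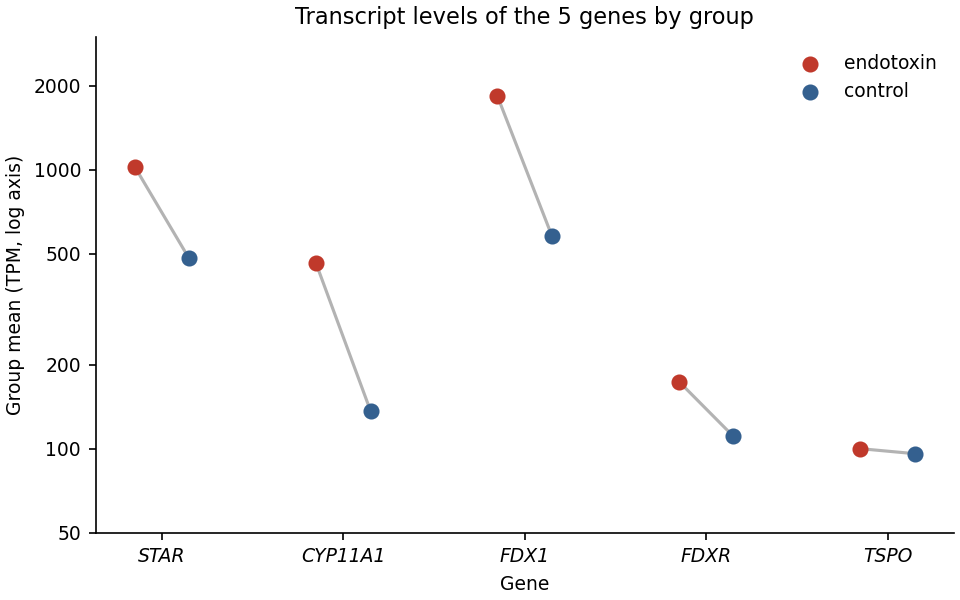
Group means of the 5 genes in TPM on a log axis, from the authors' deposited table, with endotoxin on the left and control on the right of each pair. Single means carry no error bar; FDX1 is the highest pair at 1835 and 579.6 TPM, and the TSPO points at 100.2 and 96.1 TPM lie closest together.

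The order of the 5 levels was the same in both groups of the authors' deposited table, FDX1 first, then STAR, CYP11A1, FDXR and TSPO. In controls the steps between FDX1 and STAR (579.6 and 481 TPM) and between FDXR and TSPO (111 and 96.1 TPM) were small in the authors' deposited table. The spread of these genes over libraries is not known, so whether those neighbours differ was not tested. For comparison, the 1561 features of the labelled TPM table at these levels had a median coefficient of variation between libraries of 15.8% in the endotoxin group and 12.4% in the control group.

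Proportions among the 5 transcripts were taken from the group means. Together they made up 0.36% of all TPM with endotoxin and 0.14% in controls, at sums of 3599 and 1405 TPM in the authors' deposited table. FDX1 alone was 51.0% of that sum with endotoxin and 41.3% in controls, while TSPO was 2.78% with endotoxin and 6.84% in controls. The ratio of FDX1 to its reductase FDXR was 10.5 with endotoxin and 5.23 in controls in the authors' deposited table. The ratio of CYP11A1 to FDXR was 2.65 with endotoxin and 1.23 in controls in the authors' deposited table. The ratio of FDX1 to CYP11A1, the ferredoxin and the enzyme it serves, was closer between the groups, at 3.97 with endotoxin and 4.23 in controls. Upstream, STAR to CYP11A1 was 2.22 with endotoxin and 3.52 in controls, and STAR to TSPO was 10.3 with endotoxin and 5.01 in controls. Ratios of group means have no replicate error here, and differences between the fold changes of the genes were not tested.

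Standard errors of the 5 genes were larger than those of most rows at like levels. Rows with an overall mean between 98.1 and 1207 TPM had a median standard error of 0.18 in the authors' deposited table, with quartiles of 0.15 and 0.23. FDX1 had a larger standard error than 95.2% of these rows, CYP11A1 than 93.5% and STAR than 89.5% in the authors' deposited table. FDXR and TSPO, at 83.0% and 82.3%, were also above most of them.

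**Figure D2:**
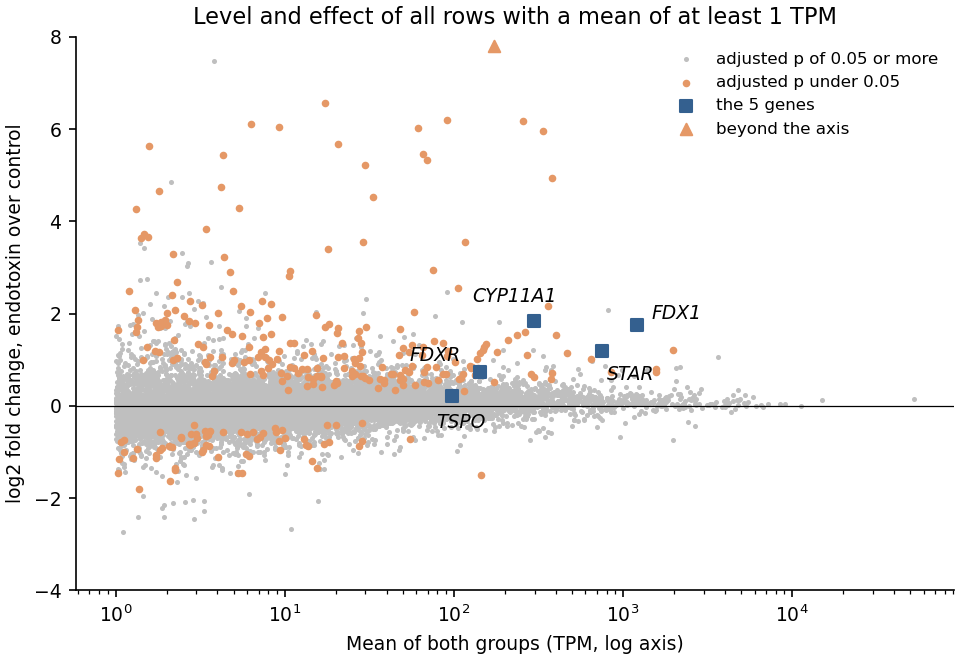
Mean of both groups in TPM (log axis) against the log2 fold change, endotoxin over control, for every row of the authors' deposited table averaging at least 1 TPM; orange points passed an adjusted p of 0.05 and blue squares are the 5 genes. STAR, CYP11A1 and FDX1 lie at the right, among rows of high level, above most grey rows of similar level, while TSPO at 0.20 lies within them. The triangle stands for 1 row beyond the axis.

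Around these 5 genes, 11 lists of genes that share their route were read from the same table. Of 104 distinct genes measured in them 3 were called, all higher, and they were HSD3B1, CYP17A1 and MRPL12. That count is to be read against the 1.72% of all rows that were called, and the 3.26% called higher at the levels of the 5 genes. The median log2 fold change of rows averaging at least 1 TPM was 0.01. Among the 1197 rows at the levels of the 5 genes it was 0.11. The list medians below can be read against both, since the lists mix high and low levels.

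Downstream of pregnenolone, 2 of 7 measured microsomal steroid enzymes and their electron donors were called higher and none lower, at a list median of 0.24 in the authors' deposited table. HSD3B1, which turns pregnenolone into progesterone, was at 2703 TPM with endotoxin and 1235 TPM in controls in the authors' deposited table, a log2 fold change of 1.22 ± 0.30 (SE; adjusted p = 0.00693). CYP17A1, the 17-hydroxylase on the way to cortisol, was at 214 TPM with endotoxin and 19.2 TPM in controls in the authors' deposited table (log2 fold change 3.55 ± 0.72 SE; adjusted p = 0.000314). The ratio of CYP17A1 to CYP11A1 was 0.463 with endotoxin and 0.14 in controls, whereas that of HSD3B1 to CYP11A1 was 5.85 with endotoxin and 9.02 in controls. HSD11B2, which inactivates cortisol, came next in the authors' deposited table at 0.81 ± 0.29 (SE; adjusted p = 0.126). CYP21A2 and CYP21, also listed, were not measured under those symbols, so that steroid enzyme was not read.

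The other mitochondrial P450 enzymes take their electrons from FDX1 as CYP11A1 does. None of the 5 measured genes of that list, FDX2 included, was called in the authors' deposited table, and the list median was 0.33. CYP11B1, which makes cortisol from its last precursor, was at 2740 TPM with endotoxin and 1579.9 TPM in controls in the authors' deposited table (0.85 ± 0.38 SE; adjusted p = 0.295). It has 2 rows in that table, of which the one with the higher mean was used, and the division of reads between them is uncertain. The other CYP11B1 row was at 2622 TPM with endotoxin and 1516 TPM in controls (log2 fold change 0.83, adjusted p = 0.24). Each row thus holds only a part of the gene's level. CYP27A1, the sterol 27-hydroxylase, was at 0.15 ± 0.19 (SE; adjusted p = 0.87) in the authors' deposited table. Both vitamin D enzymes, CYP24A1 and CYP27B1, were low, at 2.24 and 1.18 TPM with endotoxin and 2.77 and 0.954 TPM in controls in the authors' deposited table.

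STAR belongs to a family of proteins with a lipid transfer domain of the same fold. None of the 14 measured genes listed with that family was called in the authors' deposited table (median 0.004). STARD3, a cholesterol carrier of late endosomes, had the smallest p, at 19.5 TPM with endotoxin and 17.1 TPM in controls in the authors' deposited table. Its log2 fold change there was 0.32 ± 0.11 (SE; adjusted p = 0.104). STARD4, a cytosolic cholesterol carrier, was at 0.48 ± 0.36 (SE; adjusted p = 0.642) in the authors' deposited table. STARD7, a mitochondrial phosphatidylcholine carrier, was the most abundant relative, and STAR exceeded it 19.1 times with endotoxin and 10.3 times in controls in the authors' deposited table.

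None of the 8 measured partners of TSPO and channel genes of the outer membrane was called (median 0.11 in the authors' deposited table). DBI, the diazepam binding inhibitor that is a ligand of TSPO, was at 908 TPM with endotoxin and 813 TPM in controls in the authors' deposited table (0.22 ± 0.19 SE; adjusted p = 0.731). The ratio of DBI to TSPO was thus 9.07 with endotoxin and 8.46 in controls. VDAC2, an outer membrane anion channel, was at 0.19 ± 0.16 (SE; adjusted p = 0.726) in the authors' deposited table. ACBD5 had the smallest p of the list, at -0.28 ± 0.13 (SE; adjusted p = 0.317) in the authors' deposited table.

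Side-chain cleavage needs heme for CYP11A1, an iron-sulfur cluster for FDX1 and NADPH for FDXR. Of 8 measured heme synthesis genes none was called (median 0.29 in the authors' deposited table). ALAS1, the first and rate-limiting enzyme of heme synthesis outside red cells, was at 399 TPM with endotoxin and 184 TPM in controls in the authors' deposited table. Its log2 fold change of 1.22 ± 0.38 (SE) missed the threshold there (adjusted p = 0.0585), and passed, at 0.0487, when the adjustment covered only rows averaging at least 1 TPM. None of the 10 measured iron-sulfur cluster genes was called in the authors' deposited table, where 9 had a positive value and the median was 0.29. HSCB, a co-chaperone of cluster transfer, had the smallest p at 0.43 ± 0.17 (SE; adjusted p = 0.2) in the authors' deposited table. ISCU, the scaffold on which clusters are built, was at 628 TPM with endotoxin and 526 TPM in controls in the authors' deposited table (0.36 ± 0.18 SE; adjusted p = 0.361).

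Values of -0.25 to 0.21, with none called, were found for the 11 measured genes of mitochondrial NADPH supply and peroxide removal in the authors' deposited table (median 0.14). NNT, the transhydrogenase that makes mitochondrial NADPH and whose loss causes glucocorticoid deficiency in humans, was at 0.03 ± 0.18 (SE; adjusted p = 0.974) in the authors' deposited table. PRDX5, a peroxiredoxin, had the smallest p of that list at 0.21 ± 0.17 (SE; adjusted p = 0.687) in the authors' deposited table. Among 15 measured genes of general mitochondrial content the median was 0.23 and 1 was called, MRPL12, a mitochondrial ribosomal protein, at 0.58 ± 0.17 (SE; adjusted p = 0.0404) in the authors' deposited table. TOMM40, the pore of the protein import complex, was at 0.69 ± 0.24 (SE; adjusted p = 0.123), and COX4I1, a respiratory chain subunit at 1169 TPM with endotoxin and 1027 TPM in controls, was at 0.28 ± 0.21 (SE; adjusted p = 0.642), both in the authors' deposited table.

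**Figure D3:**
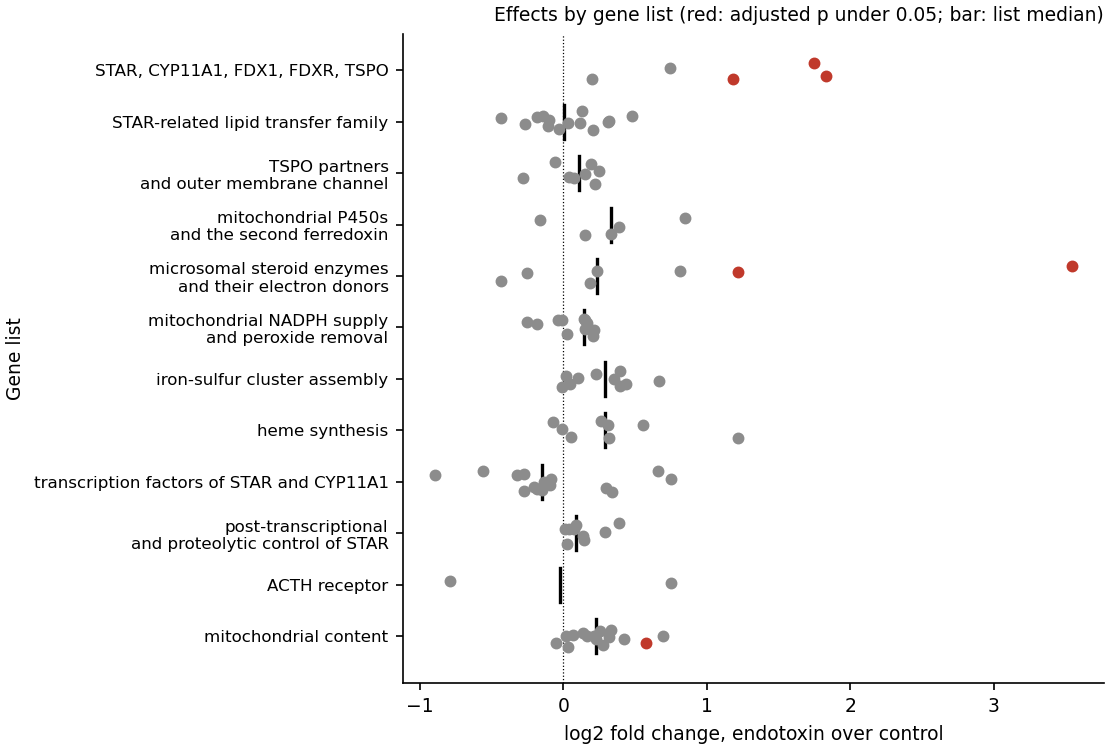
Log2 fold changes, endotoxin over control, of the 5 genes in the top line and of the 11 related lists below, from the authors' deposited table. Red points passed an adjusted p of 0.05 and black bars are list medians, which lie between -0.15 and 0.33; red points occur in the top line (3), among microsomal steroid enzymes (2) and in mitochondrial content (1).

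Genes known to control STAR and CYP11A1 were read from the same table. Of 15 measured transcription factors and cofactors none was called and 4 had a positive value, and their median was -0.15 in the authors' deposited table. NR5A1, steroidogenic factor 1, which binds the promoters of both genes, had the smallest p, at 99.6 TPM with endotoxin and 67.5 TPM in controls in the authors' deposited table. Its log2 fold change there was 0.66 ± 0.24 (SE; adjusted p = 0.146). NR4A1, an orphan receptor induced by ACTH, was at 275 TPM with endotoxin and 443 TPM in controls in the authors' deposited table (-0.56 ± 0.41 SE; adjusted p = 0.638). Among 9 measured genes of post-transcriptional and proteolytic control of STAR none was called, and all 9 had small positive values of 0.01 to 0.39 in the authors' deposited table. CLPP, a mitochondrial protease, had the smallest p at 0.29 ± 0.11 (SE; adjusted p = 0.199), and LONP1, the protease that degrades STAR in the matrix, was at 0.39 ± 0.16 (SE; adjusted p = 0.244), both in the authors' deposited table. The ACTH receptor MC2R was at 36.9 TPM with endotoxin and 23.3 TPM in controls in the authors' deposited table (0.75 ± 0.30 SE; adjusted p = 0.212). MRAP2, an accessory protein of melanocortin receptors, was at -0.79 ± 0.31 (SE; adjusted p = 0.201) in the authors' deposited table. MRAP, listed with them, was not measured under that symbol.

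**Figure D4:**
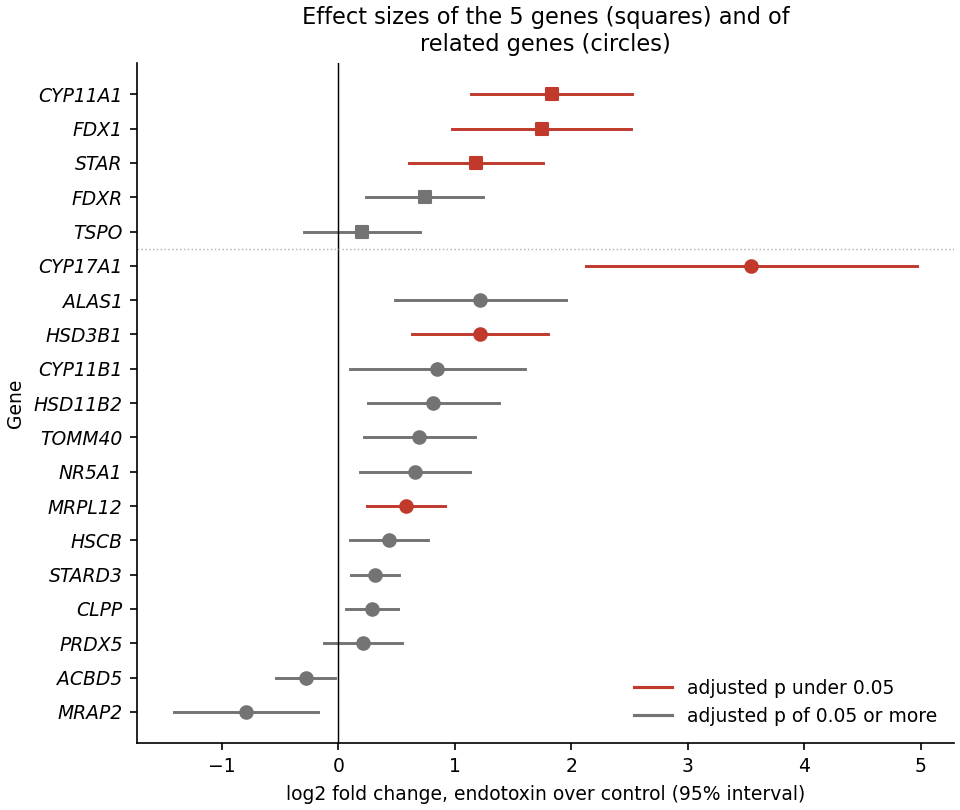
Log2 fold change with its 95% interval (not adjusted for the number of rows) for the 5 genes, as squares, and for related genes that passed or had the smallest p of their list, as circles. Intervals of STAR, CYP11A1 and FDX1 start at 0.61, 1.14 and 0.98, and that of TSPO spans 0.

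Likeness to each of the 5 genes was measured as the distance between log2 group means, over the 2 means per gene, among 11284 other named rows averaging at least 1 TPM. SCARB1, the receptor that brings lipoprotein cholesterol into the cell, lay nearest to CYP11A1 at a distance of 0.252, with 388 TPM with endotoxin and 137 TPM in controls in the authors' deposited table. SCARB1 was called higher there, at 1.61 ± 0.35 (SE; adjusted p = 0.00111), and ALAS1 was the second nearest to CYP11A1 at a distance of 0.478. The nearest rows to STAR were TGIF2-RAB5IF at 0.47 and TMEM258 at 0.585. FDX1 stood further apart, with PENK, the enkephalin precursor, at 0.763 and PPP1R1A at 0.819. FDXR lay close to TSPAN17 (0.0844) and to VEGFA, the vascular growth factor (0.0994), and TSPO to RALY (0.0105) and TUSC3 (0.0147). With 2 means a gene, such likeness says that levels were similar and nothing more.

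The genes next to the 5 on their chromosomes, taken from the RefSeq order of the sheep assembly ARS-UI_Ramb_v3.0, were looked up after the values of the 5 were known. Of 10 flanking protein-coding genes 9 were measured, and 1 was called in the authors' deposited table, where 1.72% of all rows were. That gene was FADS6, beside FDXR, at 10.9 TPM with endotoxin and 4.1 TPM in controls in the authors' deposited table (1.50 ± 0.32 SE; adjusted p = 0.00057). Its other neighbour GRIN2C was at 0.44 ± 0.36 (SE; adjusted p = 0.69) in the authors' deposited table. Beside STAR, the authors' deposited table lists ASH2L at -0.16 ± 0.09 (SE; adjusted p = 0.41) and LSM1 at 0.13 ± 0.17 (SE; adjusted p = 0.869). Beside CYP11A1, the authors' deposited table lists SEMA7A at 0.58 ± 0.25 (SE; adjusted p = 0.27) and CCDC33 at 1.33 ± 0.64 (SE; adjusted p = 0.348), and CCDC33 was below 1 TPM in both groups. ARHGAP20, the measured neighbour of FDX1, had a value opposite in sign to that of FDX1, at -0.52 ± 0.22 (SE; adjusted p = 0.253 in the authors' deposited table). Beside TSPO, the authors' deposited table lists MCAT at 0.20 ± 0.17 (SE; adjusted p = 0.72) and TTLL12 at 0.17 ± 0.15 (SE; adjusted p = 0.732).

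Of the 95 distinct KEGG categories that the authors' deposited table gives for 109 changed genes, 4 held any of the 5 genes. CYP11A1 was in all 4 and STAR in 1 of the authors' deposited categories. FDX1, though called, was in none of them. The module of progesterone synthesis held CYP11A1 and HSD3B1, both of its 2 annotated genes in the authors' deposited table (p = 0.000474 before and adjusted p = 0.0225 after adjustment over the categories). Aldosterone synthesis and secretion held STAR and CYP11A1 among 6 changed of 69 annotated genes in the authors' deposited table (p = 0.00379 before and adjusted p = 0.09 after adjustment). Steroid hormone biosynthesis, with CYP11A1, HSD3B1 and CYP17A1 changed of 23 genes in the authors' deposited table, did not pass (adjusted p = 0.155). The adjustment covered only the 95 deposited categories, each of which lists changed genes. Over a fuller set of categories the adjusted values could be larger, so whether the progesterone module would pass there is not known. Its 2 genes are the calls of CYP11A1 and HSD3B1 given above, so the module adds no separate result.

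Cell markers were read beside these values, since in a whole gland fewer cells of a type and less RNA per cell cannot be told apart. Of 7 measured cortex markers other than FDXR, 4 were called higher in the authors' deposited table, against 1.29% of its rows with a p-value. HSD3B1, CYP17A1 and SCARB1, named above, were among them, with INHA, the inhibin alpha subunit, at 1.28 ± 0.35 (SE; adjusted p = 0.0226) in the authors' deposited table. HSD3B1 and CYP17A1 are also counted among the steroid enzymes above. The 7 markers summed to 4352 TPM with endotoxin and 2307 TPM in controls, of which HSD3B1 alone held 2703 and 1235 TPM. NR5A1, at 0.66 ± 0.24 (SE; adjusted p = 0.146), was not called. Nor was MC2R, at 0.75 ± 0.30 (SE; adjusted p = 0.212). DLK1, a gene of the fetal adrenal cortex and also not called, was at 818 TPM with endotoxin and 785 TPM in controls in the authors' deposited table (0.15 ± 0.19 SE; adjusted p = 0.876). None of 6 chromaffin markers was called, and they split in sign around a median of 0.10 in the authors' deposited table. PNMT, which makes adrenaline from noradrenaline, was at 1307 TPM with endotoxin and 329.5 TPM in controls in the authors' deposited table. The log2 fold change of PNMT there, 2.07 ± 0.73 (SE; adjusted p = 0.123), was a larger value than those of STAR, CYP11A1 and FDX1, with a larger error. CHGB and DDC were at -0.43 ± 0.28 and -0.31 ± 0.21 (SE; adjusted p = 0.559 and 0.609) by the authors' deposited table.

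None of 7 endothelial and 6 fibroblast and capsule markers was called (medians 0.29 and -0.46 in the authors' deposited table). Their smallest p-values belonged to VWF, a clotting protein of endothelium, at 0.68 ± 0.28 (SE; adjusted p = 0.235) and COL1A2, a collagen chain, at -0.67 ± 0.38 (SE; adjusted p = 0.467), as the authors' deposited table lists them. Of 5 erythroid markers 1 was called higher, the globin gene HBM at 1.42 ± 0.34 (SE; adjusted p = 0.00412), and SLC4A1, the red cell anion exchanger, came next at 1.22 ± 0.38 (SE; adjusted p = 0.0611) by the authors' deposited table. Macrophage and monocyte markers called higher were MARCO, a scavenger receptor, at 3.28 ± 0.45 and CD14, the endotoxin co-receptor, at 1.05 ± 0.24 (SE; adjusted p = 3e-10 and 0.00218), followed by LYZ, lysozyme, at 1.02 ± 0.39 (SE; adjusted p = 0.182), by the authors' deposited table. The 7 neutrophil markers called higher were S100A8, S100A9, S100A12, MPO, CSF3R, ELANE and LTF, with log2 fold changes of 2.69 to 6.18 in the authors' deposited table. MMP9, a granule protease, was at 0.37 ± 0.27 (SE; adjusted p = 0.647) by the same authors' deposited table. The neutrophil marker MMP8 stood near 0 in both groups, at 0.0058 TPM with endotoxin and 0 TPM in controls in the authors' deposited table. CYBB, also not called, was at 0.08 ± 0.31 (SE; adjusted p = 0.972) there. The part of cell makeup in the values of STAR, CYP11A1 and FDX1 was not tested.

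The labelled TPM table gives the spread between libraries at the levels of the 5 genes, without names. Among its 28 features at least 2-fold higher with endotoxin there, 5 did not overlap between the groups. Of all 1561 features at these levels, 1.73% lay wholly higher. Choice by fold change itself favours features without overlap, so nothing is read from the difference between these shares. Endotoxin replicate 4 stood apart at these features. Its median level was 1.01 times the control mean, against 3.93, 4.77, 1.85 and 2.34 times in endotoxin replicates 2, 3, 5 and 6. In control libraries the median lay between 0.768 and 1.21 times. Replicate 4 was the lowest endotoxin library at 23 of the 28 features and above every control library at 6, yet the highest endotoxin library at 3, with up to 114 times the control mean. Over all 1561 features at these levels its median was 0.941 times the control mean, and the medians of the other 4 endotoxin libraries lay between 0.985 and 1.02. The features were chosen by their fold change and carry no names, so whether STAR, CYP11A1 and FDX1 are among them was not tested.

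**Figure D5:**
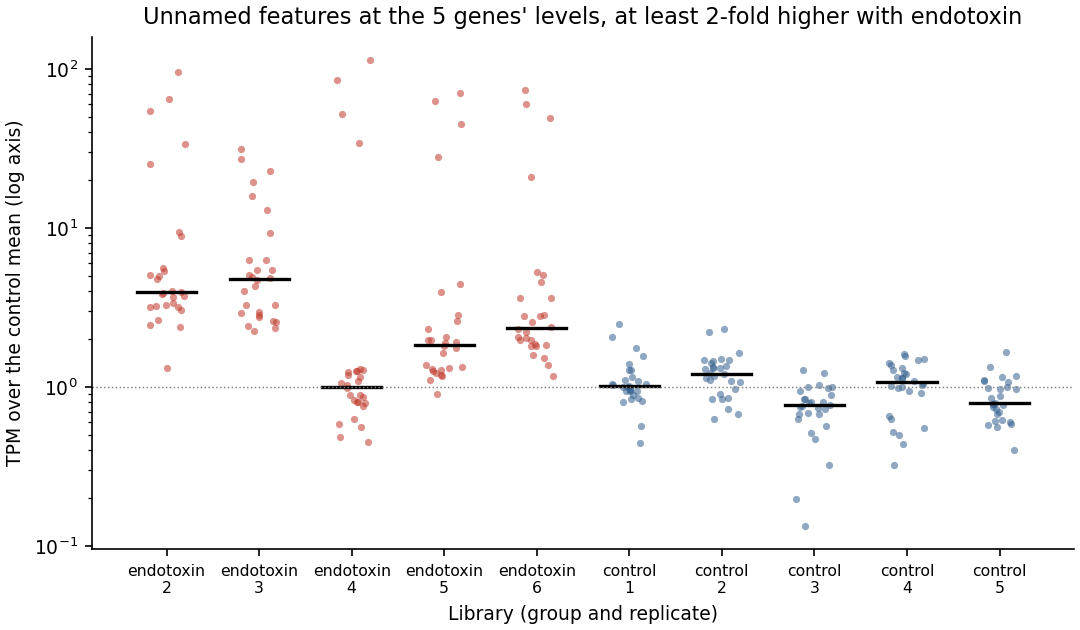
TPM over the mean of the control libraries (log axis) for the 28 unnamed features of the labelled TPM table within 96.1 to 1835 TPM and at least 2-fold higher with endotoxin, 1 point per feature, endotoxin libraries on the left and control libraries on the right. Black bars are medians; that of endotoxin replicate 4 lies at 1.01, among the controls, with single points up to 114.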

How the data were processed

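Per the submitters' processing notes, Salmon 0.9.1, fastp 0.19.4, DESeq2 (no version) and the genome build Oar_v3.1 were used, in roles not given there. The authors deposited estimated counts per gene ID and TPM per library for 20781 IDs, with 12494386 to 18324516 estimated counts per library. Totals did not separate the groups (exact two-sided permutation p = 0.968). Their table of differential expression holds, per the file headers, the mean of each group, raw and adjusted p-values, a score with its standard error, and a log2 column. The means are read as TPM because both columns have the total of the labelled TPM columns. The deposited log2 column adds a pseudocount of 1 to each mean, so fold changes here are the authors' score times its standard error, and intervals are 95% normal intervals. In 80 rows p is set to 1, and these were left out. Over the other rows the deposited adjusted p-values equal a Benjamini-Hochberg adjustment. The table of KEGG categories holds, per the file headers, counts and percent of changed genes and p-values, which were adjusted over 95 distinct categories.

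The planned test per library with edgeR was not run, since 0 of the labelled IDs are in the reference table. No sequences were printed and promoter motifs were not searched. Where a symbol has 2 rows, the higher mean was used. Genes and lists were chosen with earlier results of these data known. The text names the 5 genes, list genes that passed, the smallest p of each list and the 2 nearest rows, with other list genes chosen for their role after their values were seen. Python 3.11.15 with scipy 1.17.1 was used, and the adjustment was tested on simulated data. Alternatives were the log2 scale, pseudocount, centring, rows adjusted over, threshold and libraries left out.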

Additional observations from a re-analysis of the deposited data

How the results depend on the processing

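STAR, CYP11A1 and FDX1 passed and FDXR and TSPO did not under every alternative tried, which were adjustment over all rows, adjustment over rows averaging at least 1 TPM, and thresholds of 0.01 and 0.1. On the log2 ratio of mean TPM plus 1 the fold changes were 1.09, 1.75, 1.66, 0.65 and 0.06 for STAR, CYP11A1, FDX1, FDXR and TSPO, where the median of rows averaging at least 1 TPM is -0.10 in place of 0.01 on the model scale. With adjustment over rows averaging at least 1 TPM, FDXR was at 0.0956 and ALAS1 at 0.0487, which is the fourth call among the list genes; the smaller number of rows adjusted over sets this. List genes called numbered 2 at a threshold of 0.01 and 4 at 0.1. The median coefficient of variation lay between 13.6% and 17.3% with endotoxin libraries left out in turn and between 11.3% and 13.3% with control libraries left out. The 28 features at least 2-fold higher numbered between 18 (without endotoxin replicate 3) and 38 (without endotoxin replicate 4), an alternative chosen after seeing the data, and the 3 lower between 2 and 5. Values of the 5 genes could not be recomputed without any library. No paired analysis was possible because the authors' deposited table gives 1 mean per group. Depth behind the named values is unknown, since that table holds no counts.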
